A study of Mus musculus with 12 samples.

Results

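The 10 genes described here encode enzymes that remove superoxide and peroxides, make or use glutathione, or belong to the response of the transcription factor NRF2: Sod1, Sod2, Cat, Gpx1, Gpx4, Gclc, Gclm, Txnrd1, Hmox1 and Nqo1. Members were the genes of this list named alone by a probe set of the array, which held for all 10 of them and for 11 of 35474 probe sets, Gpx4 having 2. In all, 19935 genes were named alone by at least 1 probe set. Their transcripts were measured in hematopoietic stem cells (HSCs) of mice, cells of the bone marrow that renew themselves and give rise to all blood lineages. Cells with the surface phenotype CD150+ CD48- c-kit+ Sca-1+ lineage- were sorted in lots of 5000 to 7000, and 12 Affymetrix Mouse Gene 1.0 ST arrays were deposited. The 4 groups of 3 mice and 3 arrays each were males given oil, males given estradiol (E2), females given oil and females given E2. Every mouse was 2 to 3 months old and received 100 µL of corn oil under the skin, which in the E2 groups carried 2 µg of E2, the main estrogen. The sources used here do not name the strain or any genetic change, the schedule of the injections or the state of the gonads.

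Superoxide, a by-product of respiration, is turned into hydrogen peroxide by the superoxide dismutases, and the peroxide is then removed by catalase, glutathione peroxidases and peroxiredoxins. Glutathione is built by a ligase whose catalytic and modifier subunits come from Gclc and Gclm, and thioredoxin is kept reduced by thioredoxin reductases. NRF2 binds antioxidant response elements near genes such as Gclm, Txnrd1, Hmox1 and Nqo1 and raises their transcription when cells are exposed to oxidants. HSCs are known for low levels of reactive oxygen species and for losing their long-term function when these rise.

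Of the 10 genes, only Gpx1 passed the test of E2 against oil used here, and only in the comparison that averages both sexes. Its transcript was higher by 1.18-fold (95% confidence interval 1.07 to 1.29). Gpx1 lay close to the threshold, passing in 3 of 12 fits that left out 1 array and in 5 of 11 other settings. Among those settings, an adjusted p under 0.1 could only keep the call. A log2 change of at least 1 could only end it. Catalase was lower on the E2 arrays of females but did not pass. No other member passed, and the intervals of their differences are plotted with each gene.

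Sequences of the promoters are shown first for the gene that passed and for Cat, the gene with the next smallest p, and then for the members that hold an antioxidant response element. RefSeq promoter sequences (GRCm38.p6) were matched by symbol for 8 of the 10 genes, with 13 start sites among them; Gclc and Hmox1 were not matched. The 250 bases before the start of Gpx1 lie at chr9:108338830-108339079 on the plus strand, and those before the start of Cat at chr2:103485154-103485403 on the minus strand. Both are printed 5′ to 3′, with GC boxes (GGGCGG on either strand) in capitals.
Gpx1: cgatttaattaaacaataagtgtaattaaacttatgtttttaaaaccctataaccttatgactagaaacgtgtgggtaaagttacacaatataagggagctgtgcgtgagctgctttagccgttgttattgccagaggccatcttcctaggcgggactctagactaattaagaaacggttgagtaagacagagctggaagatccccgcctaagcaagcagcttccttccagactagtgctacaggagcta
Cat: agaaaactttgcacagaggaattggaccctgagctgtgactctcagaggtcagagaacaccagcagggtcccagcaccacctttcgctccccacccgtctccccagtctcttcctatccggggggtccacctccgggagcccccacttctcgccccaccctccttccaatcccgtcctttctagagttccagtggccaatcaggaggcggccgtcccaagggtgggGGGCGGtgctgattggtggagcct
The Gpx1 stretch had a GC content of 42.0% and held no GC box, whereas the Cat stretch had 62.0% and 1 GC box. Of 32851 promoter stretches of this length 32.7% held one, as did 9 of the 13 member promoters, which came from 7 of the 8 matched members. The Gpx4 stretches that begin at chr10:80053315 and chr10:80053409 overlap and hold the same GC boxes, and both are in that count. The full estrogen response element GGTCANNNTGACC was in none of the 13 member promoters and in 0.0639% of all, and the 6-base element AGGTCA, which is 1 arm of it with a base added, was found before Cat and 1 start of Gpx4, against 14% of all.

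The core of the antioxidant response element, TGACNNNGC on either strand, was present before Gclm, Txnrd1 and Sod1, that is in 3 of 13 member promoters and in 10.2% of all promoters. None of these 3 matches overlapped another motif searched. They are printed with 10 bases on each side, the match in capitals, as read on the gene's own strand, where the core appears as its reverse complement.
Gclm, chr3:122245413-122245441, plus strand: gctcccgggcGCACCGTCAactctcacga
Txnrd1, second start site, chr10:82859104-82859132, plus strand: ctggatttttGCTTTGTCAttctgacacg
Sod1, chr16:90220696-90220724, plus strand: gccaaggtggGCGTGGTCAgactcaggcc
The matches end 126, 84 and 48 bases before the start in the order given. They are descriptions of letters in a short window, and elements farther from the start were not searched.

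Values are probe set intensities on a linear scale, tested as log2 of the intensity plus 1. The median intensity of an array lay between 143 and 159, and the 3 E2-treated female arrays varied most: their root mean square deviation from the group mean was 0.169 to 0.200 on the log2 scale, against 0.0993 to 0.127 on the other 9 arrays. Of 9 HSC markers, 7 were measured, all 7 with a mean above 182, the intensity below which genes were treated as dim and left untested. Of those 7, Kit and Procr were lower with E2 (averaged log2 differences of -0.32 and -0.47; limma, adjusted p = 0.0023 and 0.000537). Of the 5 mast cell and basophil markers none had a mean above 182, and of the 10 monocyte and macrophage markers 3 did. Summed over its measured markers, the granulocyte list ranged from 5427 to 21646 over the arrays and overlapped between all groups, while the megakaryocyte list lay at 3579 to 3981 under oil and 2147 to 3142 under E2. The T and NK cell sums were 1218 to 1477 under oil and 941 to 1059 under E2. Of the 8 markers in these sums 3 had a mean above 182, and of those Nkg7 alone was called. The B cell sums were 840 to 1173 under oil and 701 to 879 under E2. In the same order, the mast cell and basophil sums were 296 to 391 and 268 to 303. Those of stroma and endothelium were 1286 to 1629 and 1253 to 1752. Of 6 megakaryocyte markers above 182, 4 fell and 1 rose on average. All 8 granulocyte markers above 182 had an averaged difference below 0, of which Prtn3 passed (-0.29). Of 3 T and NK cell markers above 182, Nkg7 fell (-1.67), while Cd4 was at 0.09 and the median of the 3 was -0.01. Cd79b, the 1 B cell marker above 182, also fell (-0.41). Of 2 erythroid markers above 182, Tfrc rose (0.36) and Car1 was at -0.08. Of 3 stroma and endothelium markers above 182, Col1a2 rose (0.90), Pecam1 was at -0.23 and the median was 0.14. The part of these cells in the results was not tested.

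**Figure D1:**
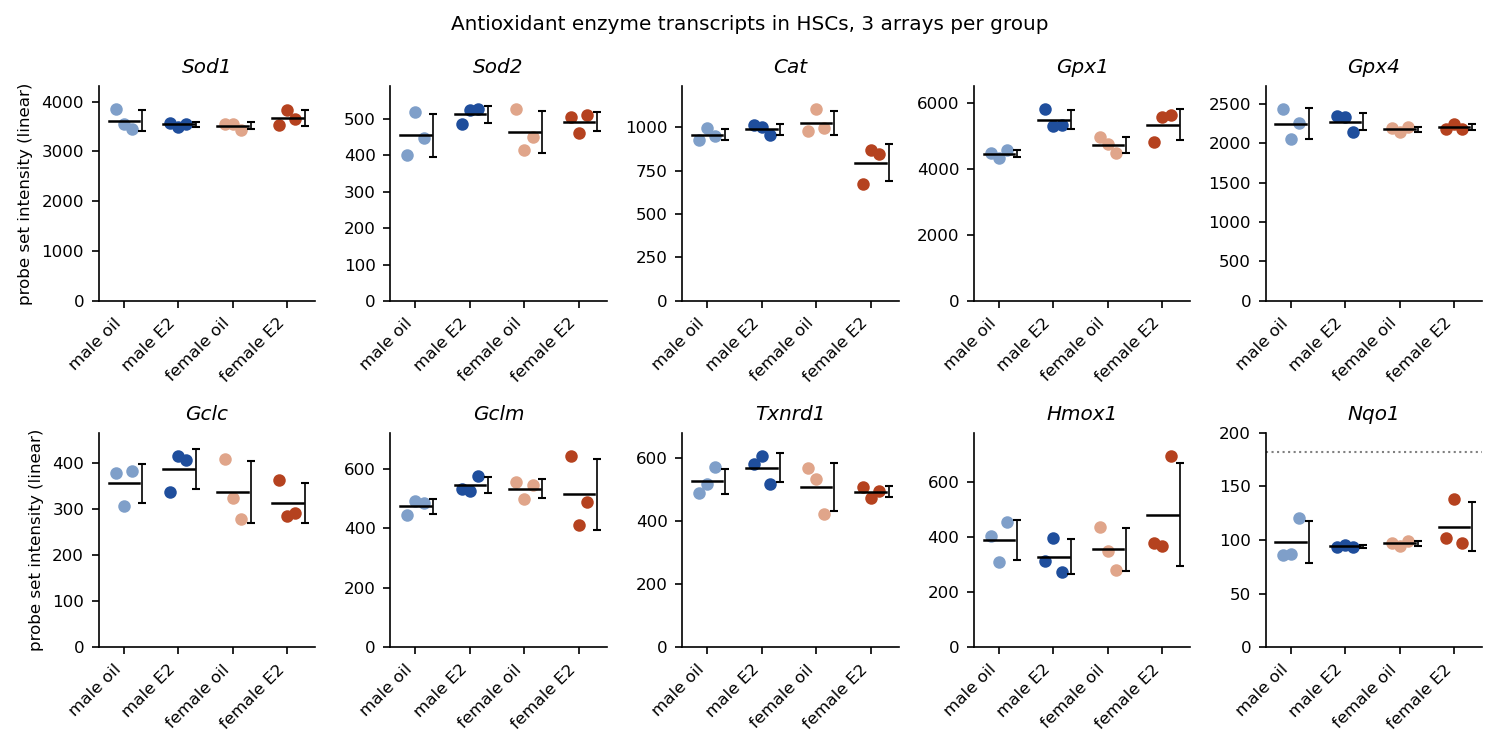
Probe set intensity (linear, each axis from 0) of the 10 genes in the 4 groups; each point is 1 array, the horizontal line is the mean and the bar beside it is the SD of 3 arrays, and the dotted line in the Nqo1 panel is the filter value of 182. Gpx1 is higher on all 3 male E2 arrays than on the male oil arrays, Cat is lower on all 3 female E2 arrays than on the female oil arrays, and Hmox1 has 1 high female E2 array at 696.

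Gpx1 encodes a glutathione peroxidase of the cytosol and mitochondria, a selenoprotein that reduces hydrogen peroxide with glutathione. In males its intensity was 4467, 4339 and 4562 on the oil arrays and 5810, 5299 and 5333 on the E2 arrays. In females it was 4958, 4759 and 4471 under oil and 4800, 5570 and 5639 under E2. The male groups did not overlap, as for 13.6% of genes tested in that direction. In females 1 E2 array, replicate 1, lay within the oil range. The means were 4456 ± 112 and 5481 ± 286 in males and 4729 ± 245 and 5336 ± 466 in females (SD, n = 3).

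In limma's model of all 12 arrays, the averaged log2 difference of Gpx1 was 0.23 ± 0.06 (SE; adjusted p = 0.0314), with 887 of 9967 genes called in that comparison, or 8.9% (3.12% higher and 5.78% lower). Within a sex it did not pass, at 0.30 ± 0.09 in males (adjusted p = 0.121) and 0.17 ± 0.09 in females (adjusted p = 0.313). The response of females minus that of males was -0.13 ± 0.12 (adjusted p = 0.954), so no difference between the sexes was detectable. In the averaged comparison 85.4% of genes tested had a smaller difference than Gpx1. As these are sorted but bulk samples, more RNA per cell and a different mix of cells cannot be told apart.

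The call for Gpx1 lay close to the threshold. It ended in 9 of 12 fits that left out 1 array, namely each of the 3 male oil arrays, each of the 3 male E2 arrays, female oil replicates 2 and 3 and female E2 replicate 2. Their adjusted p lay from 0.0506 to 0.0786, with differences from 0.21 to 0.25. Without female E2 replicate 1 the difference was 0.27 (adjusted p = 0.00929). Every one of these 12 fits kept it above 0.21.

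**Figure D2:**
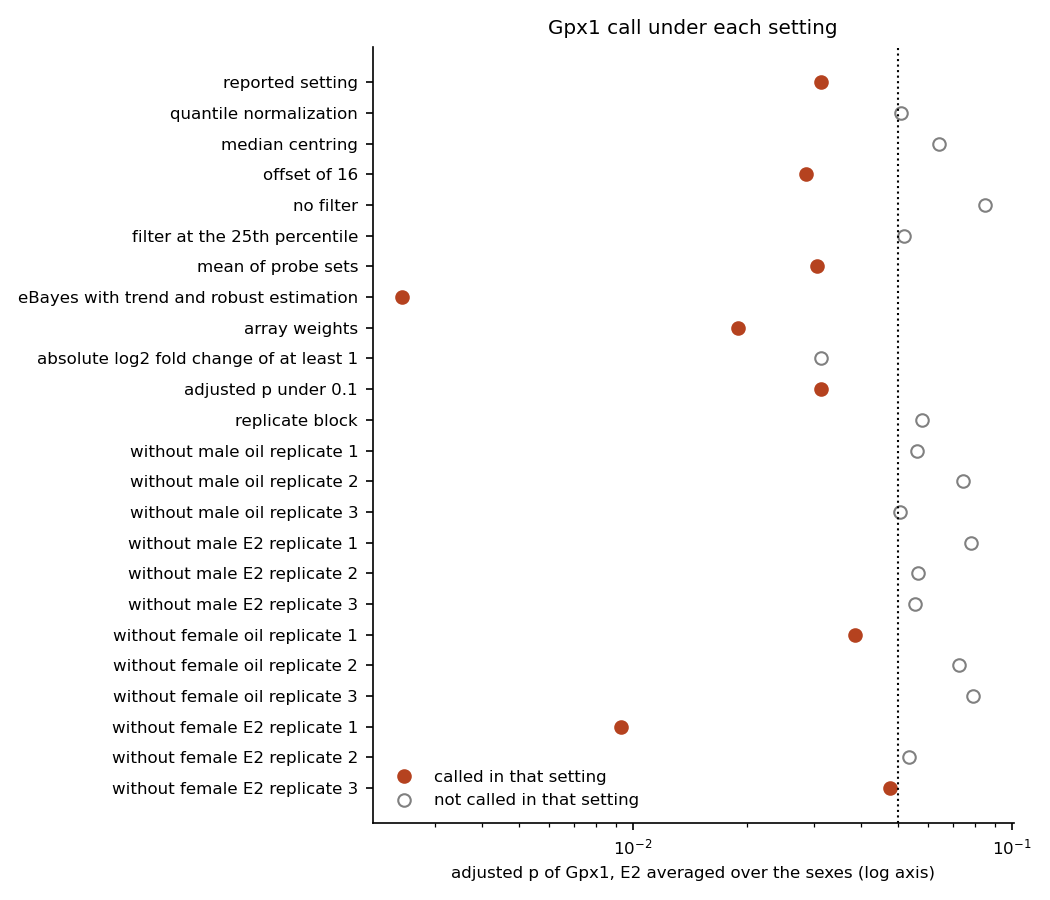
Adjusted p (log axis) of the averaged Gpx1 difference in the reported fit and under each alternative; filled points were called in that setting and open points were not, and the dotted line marks 0.05. The values lie on both sides of the line, from 0.00246 with trend and robust estimation to 0.0846 with no filter.

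Over the 12 arrays, the named genes whose log2 values followed Gpx1 most closely among 9475 candidates were Rmnd5b, Gbp4 and Thbs1, with Pearson's r of 0.973, 0.966 and 0.961. Rmnd5b belongs to a ubiquitin ligase complex, Gbp4 is a guanylate-binding protein and Thbs1 a matrix glycoprotein. All 3 genes were higher with E2, by 0.67, 2.00 and 2.96 on the log2 scale. With the group means removed, r was 0.912, 0.894 and 0.871. They were picked as the highest of many and are a description.

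Gpx4, a glutathione peroxidase that acts on lipid peroxides in membranes and guards against ferroptosis, differed little between groups. With the brighter of its probe sets it read 2432, 2049 and 2261 in oil-treated males, 2342, 2327 and 2143 in E2-treated males, 2191, 2140 and 2202 in oil-treated females and 2179, 2245 and 2182 in E2-treated females. All groups overlapped. Its averaged difference was 0.02 (95% confidence interval -0.11 to 0.14). The other probe set gave the same averaged difference of 0.02, and the brighter one exceeded it by 1.03 to 1.04 times on each array.

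Cat encodes catalase, the peroxisomal enzyme that breaks down hydrogen peroxide without a cofactor to be recycled. It read 929, 992 and 951 in oil-treated males and 1010, 1001 and 953 in E2-treated males. In females it read 978, 1104 and 994 under oil and 673, 871 and 843 under E2. The male groups overlapped, and every female E2 array lay below every female oil array, as it did for 13.1% of genes tested. Its lowest value, 673, was on female E2 replicate 1.

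The log2 difference of Cat in females was -0.37 ± 0.10 (SE) and did not pass in limma's model (adjusted p = 0.0599), where 355 of 9967 genes or 3.56% were called. It was -0.26 (adjusted p = 0.101) without female E2 replicate 1. It passed without female E2 replicate 2 (-0.44, adjusted p = 0.0464) or replicate 3 (-0.42, adjusted p = 0.0493). In males the difference was 0.05 ± 0.10 (adjusted p = 0.885). The test of the female response against the male response gave -0.42 ± 0.14 with an unadjusted p of 0.0108 and an adjusted p of 0.854, and it called 1 of 9967 genes, or 0.01%. Under E2 every female array was also below every male array for Cat, as for 8.72% of genes tested, at -0.32 ± 0.10 (adjusted p = 0.452). The summed intensity of 7 measured erythroid markers, a lineage rich in catalase, ranged from 909 to 1857 under oil and from 1213 to 1779 under E2 in females, and its part in the catalase values was not tested.

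Sod1 and Sod2 encode the copper-zinc superoxide dismutase of the cytosol and the manganese enzyme of mitochondria. Sod1 read 3852, 3546 and 3457 in oil-treated males, 3577, 3492 and 3556 in E2-treated males, 3553, 3557 and 3441 in oil-treated females and 3523, 3837 and 3646 in E2-treated females. It was the steadiest member, with a within-group SD of 0.05 on the log2 scale that was smaller in only 2.11% of genes tested. The averaged difference was 0.02, with a 95% confidence interval from -0.10 to 0.13.

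Sod2 read 401, 518 and 447 in oil-treated males, 485, 525 and 527 in E2-treated males, 527, 415 and 450 in oil-treated females and 505, 462 and 510 in E2-treated females. The oil arrays spread more widely than the E2 arrays, and the groups overlapped in both sexes. The averaged difference was 0.13 ± 0.08 (adjusted p = 0.312, limma), with an interval from -0.03 to 0.30.

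Gclc and Gclm encode the catalytic and the modifier subunit of glutamate-cysteine ligase, which sets the pace of glutathione synthesis. Gclc read 378, 306 and 383 in oil-treated males, 337, 416 and 406 in E2-treated males, 409, 324 and 278 in oil-treated females and 363, 286 and 291 in E2-treated females. The groups overlapped, and the averaged difference was 0.01 with an interval from -0.21 to 0.24. The within-group SD of Gclc, 0.21 on the log2 scale, exceeded that of 86.1% of genes tested.

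Gclm read 444, 492 and 484 in oil-treated males and 532, 526 and 575 in E2-treated males, where the groups did not overlap, as for 13.6% of genes tested in that direction. In females it read 557, 499 and 544 under oil and 644, 410 and 489 under E2, with the highest and the lowest value of all 12 arrays in the same group. The log2 difference in males was 0.20 ± 0.13 (adjusted p = 0.509), and in females it was -0.07 ± 0.13 (adjusted p = 0.809), neither of which passed in limma's model. Oil-treated females were above oil-treated males on every array, as for 5.65% of genes tested, at 0.17 ± 0.13 (adjusted p = 0.997).

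Txnrd1 encodes the cytosolic thioredoxin reductase, a selenoprotein. It read 489, 517 and 570 in oil-treated males, 581, 607 and 518 in E2-treated males, 568, 533 and 423 in oil-treated females and 507, 474 and 497 in E2-treated females. The E2 range met the oil range in each sex. The averaged difference was 0.04, with an interval from -0.13 to 0.21. Under E2 the female arrays were all below the male arrays, as for 8.72% of genes tested, at -0.21 ± 0.11 (adjusted p = 0.605).

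Hmox1 encodes heme oxygenase 1, the inducible enzyme that breaks heme down to biliverdin, iron and carbon monoxide. It read 403, 311 and 454 in oil-treated males, 314, 398 and 274 in E2-treated males, 436, 349 and 281 in oil-treated females and 380, 368 and 696 in E2-treated females. The last value, on female E2 replicate 3, was the highest, and all E2 and oil groups overlapped. Hmox1 was the most variable member, with a within-group SD of 0.36 on the log2 scale that exceeded that of 98.7% of genes tested.

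The averaged difference of Hmox1 was 0.07, with an interval from -0.29 to 0.44, and it was -0.07 without female E2 replicate 3. The responses of the sexes pointed in opposite directions, at -0.25 ± 0.24 in males and 0.39 ± 0.24 in females, and their difference of 0.64 ± 0.33 did not pass (adjusted p = 0.953, limma). Females minus males under E2 came to 0.50 ± 0.24 (adjusted p = 0.558). Without female E2 replicate 3 the female difference was 0.10, that between the responses 0.34 and that between the sexes under E2 0.20. Macrophages are known for high Hmox1. The summed intensity of 10 monocyte and macrophage markers was 2960 on female E2 replicate 3 and ranged from 2472 to 3417 over all arrays, and its part in the Hmox1 values was not tested.

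Nqo1 encodes a quinone reductase that is a standard readout of NRF2 activity. Its intensity ran from 85.8 to 139 over the 12 arrays with a median of 96.2, below 182 on every array, so it did not enter the test. The 3 male oil arrays read 85.8, 87.3 and 120, and the 3 male E2 arrays 93.6, 95.4 and 93.3. In females the oil arrays read 97.0, 94.7 and 99.3 and the E2 arrays 102, 139 and 97.0. Under E2 every female array was above every male array, as for 4.1% of genes tested. The E2 and oil groups overlapped in both sexes, and fitted without the filter its averaged difference was 0.08 ± 0.10 (adjusted p = 0.796). No difference of Nqo1 passed, and whether its low signal hid one was not tested.

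**Figure D3:**
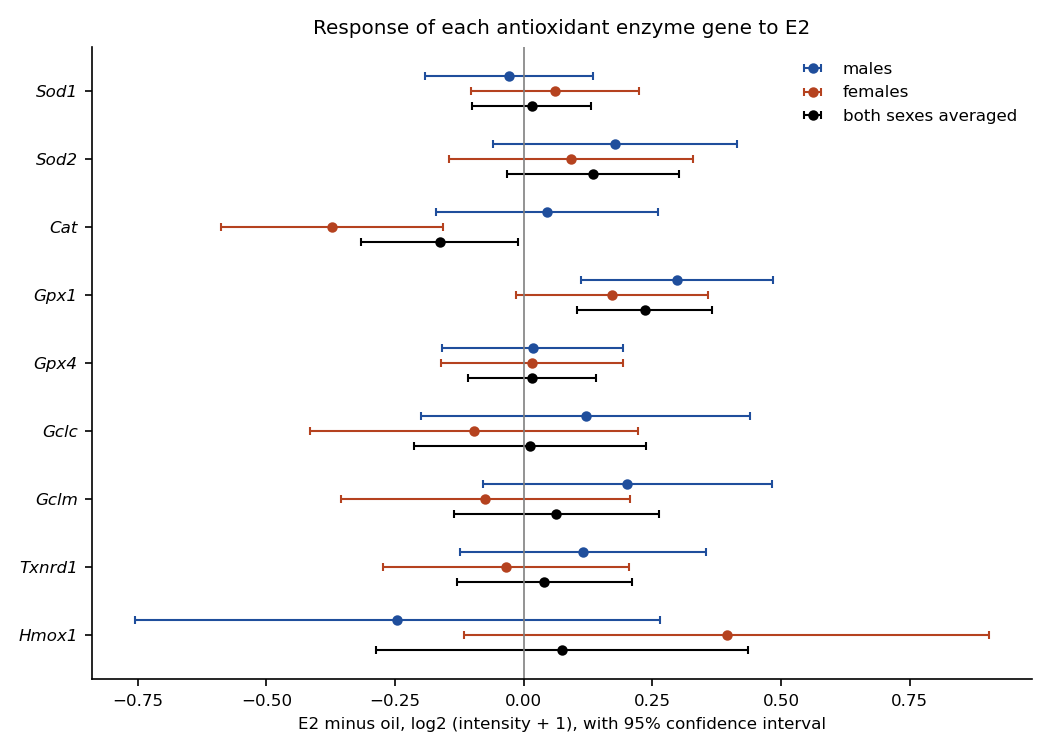
Log2 difference of E2 minus oil with its 95% confidence interval from limma for the 9 members above the filter, for each sex and for their average. The averaged intervals of Gpx1 (0.10 to 0.37) and Cat (-0.32 to -0.01) lie off 0, and those of the other 7 genes include it.

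Set side by side, 9 of the 10 members passed the filter on dim genes. In males 0 of these 9 were called by limma (1 at an unadjusted p under 0.05, Gpx1), against 143 of 9967 genes or 1.43% (0.572% higher and 0.863% lower). In females 0 were called (1 unadjusted, Cat), against 3.56% (0.813% higher and 2.75% lower). In the averaged comparison Gpx1 alone was called, 1 of 9 beside 8.9% of all genes, a share near the background. The averaged differences of the 9 ran from -0.16 to 0.23 with a median of 0.04, while the median of all genes tested was -0.01. All 9 had an averaged 95% confidence interval within 0.5 of 0 on the log2 scale, as did 90.7% of all genes tested. Between the sexes 0 of 9 members were called under oil or under E2 (0 and 1 unadjusted, the latter Cat), where 0.0401% and 0.01% of genes were. Groups that did not overlap were found for 2 of the 9 members tested in males (13.6% of genes tested all higher, 13% all lower), 1 in females (6.95% and 13.1%), 1 between the sexes under oil (5.65% and 7.29%) and 2 under E2 (4.1% and 8.72%).

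The other genes of the pathway were taken from 10 lists of 92 genes, of which 87 were measured and 74 passed the filter. In the averaged comparison 5 of these 74 were higher and 4 lower, 12.2% of them, beside 8.9% of all genes tested. These counts changed with the processing: they were 0 higher and 3 lower with median centring, 7 and 4 with quantile normalization, 2 and 3 with the replicate block and 0 and 2 with no filter. With 1 array left out they ran from 0 to 6 higher and from 2 to 6 lower, and none was higher without male oil replicate 2, male E2 replicate 2 or female oil replicate 2 or 3. In males 0 of 74 passed in limma's model, and in females 2 were lower, or 2.7%, beside 2.75% of all genes tested. An unadjusted p under 0.05 was found for 13 of the 74 in males, 19 in females and 26 on average. Among all 9967 genes tested it was found for 1470 (14.7%), 1853 (18.6%) and 2453 (24.6%). Their averaged median was -0.00 on the log2 scale.

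Among the peroxiredoxins and sulfiredoxin, 1 of 5 rose. Prdx4, the peroxiredoxin of the endoplasmic reticulum, read 678 to 817 on the male oil arrays and 903 to 979 on the male E2 arrays, and 705 to 802 and 855 to 1278 on those of females. Its averaged difference was 0.36 ± 0.09 (adjusted p = 0.0337), and the groups did not overlap in either sex. All E2 arrays were higher for 13.6% of genes tested in males and 6.95% in females. The call ended without male oil replicate 2, any male E2 array or female oil replicate 2 or 3, with an adjusted p of up to 0.0884.

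Among 10 thioredoxins and glutaredoxins, 2 rose and 1 fell. Txn2, the mitochondrial thioredoxin, rose by 0.25 ± 0.06 (adjusted p = 0.025), and Glrx3, a glutaredoxin that acts in iron-sulfur cluster handling, by 0.24 ± 0.07 (adjusted p = 0.0425). The E2 and oil arrays of Txn2 overlapped in females, and those of Glrx3 overlapped in males. Txnip, which binds and inhibits thioredoxin, read 3759 to 3777 in oil-treated males, 2339 to 3116 in E2-treated males, 3291.4 to 3365 in oil-treated females and 2077 to 3291.2 in E2-treated females, so that the female groups were barely apart. It fell by 0.39 ± 0.10 (adjusted p = 0.0298). The call of Txn2 ended without male oil replicate 1 or 2, male E2 replicate 1 or 2, or female oil replicate 2 or 3 (adjusted p up to 0.0678). That of Glrx3 stood only without male oil replicate 3, female oil replicate 1 or female E2 replicate 3 (up to 0.11 otherwise), and that of Txnip only without male E2 replicate 1 or any 1 female E2 array (up to 0.0794 otherwise).

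In the glutathione list 1 of 5 rose, Ggct, a gamma-glutamylcyclotransferase of glutathione turnover, at 0.37 ± 0.10 (adjusted p = 0.0389), although its E2 range met its oil range in each sex. Its call stood only without male oil replicate 3, male E2 replicate 1, female oil replicate 1 or female E2 replicate 3, with an adjusted p of up to 0.1 otherwise. Of 6 genes of NADPH supply, Idh1, the cytosolic isocitrate dehydrogenase, read 371 to 482 in oil-treated males and 321 to 329 in E2-treated males, and 405 to 438 and 274 to 386 in females. It fell by 0.38 ± 0.09 (adjusted p = 0.0153), with no overlap in either sex. All E2 arrays were lower for 13% of genes tested in males and 13.1% in females. Idh1 passed in every fit that left out 1 array. Taldo1, transaldolase of the pentose phosphate pathway, fell in females at -0.32 ± 0.08 (adjusted p = 0.0453). That call ended in 11 of 12 such fits, all but that without female E2 replicate 1 (adjusted p up to 0.16). It held with median centring (adjusted p = 0.0353, limma). It ended with quantile normalization (0.0527), array weights (0.0676), the replicate block (0.0593) and only the female groups compared (0.203).

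NRF2 itself and its partners did not pass. Of 9 genes, which included Nfe2l2 for NRF2 and Keap1 for the adaptor that marks it for degradation, 0 were called in the averaged comparison by limma (2 at an unadjusted p under 0.05, which 24.6% of all genes tested had). Nfe2l2 was at -0.08 ± 0.08 (adjusted p = 0.591) and Keap1 at -0.11 ± 0.06 (adjusted p = 0.342), and the list's median was -0.11. Of 6 genes of heme breakdown and iron storage, 0 were called (2 unadjusted), with a median of -0.09. Of 18 genes of selenoprotein synthesis and other selenoproteins, the class to which Gpx1, Gpx4 and Txnrd1 belong, 0 were called (6 unadjusted, beside the same 24.6% of all genes), with a median of 0.03 and a range from -0.22 to 0.24. Of 5 further peroxidases, dismutases and methionine sulfoxide reductases, 0 were called (2 unadjusted).

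Sesn3, a sestrin that restrains growth signalling under oxidative stress, read 495 to 575 in oil-treated males and 391 to 474 in E2-treated males, and 511 to 574 and 356 to 385 in females. The groups did not overlap in either sex, as for 13% of genes tested in males and 13.1% in females in that direction. It fell by 0.43 ± 0.07 on average (adjusted p = 0.002) and by 0.57 ± 0.10 in females (adjusted p = 0.00732), and both calls stood in all 12 fits that left out 1 array. Foxo3, a transcription factor that drives antioxidant genes and is needed to keep HSCs, was at -0.25 ± 0.07 (adjusted p = 0.0475), and passed in 1 of the 12 such fits, that without female E2 replicate 3 (adjusted p up to 0.118 in the others). Its adjusted p was 0.0773 with median centring and 0.0674 with the replicate block. These were 2 of the 7 genes in the list of FoxO factors, Atm and sestrins, beside 5.78% of all genes called lower, and Sesn3 alone of them held in every fit without 1 array. Of 3 genes of the superoxide-producing NADPH oxidase above the filter, Ncf4, a regulatory subunit, rose by 0.50 ± 0.14 (adjusted p = 0.0462). Its intensity was 134 to 161 in oil-treated males and 202 to 246 in E2-treated males. In females it was 166 to 236 under oil and 176 to 349 under E2, so the female groups overlapped. The filter used the mean over all 12 arrays, so Ncf4 was tested although every male oil array lay below 182. The E2 arrays contributed to that mean, and a filter on the oil arrays alone was not tested. Ncf4 passed in 2 of the 12 such fits, those without female oil replicate 1 or female E2 replicate 1 (adjusted p up to 0.119 in the others). With no filter on dim genes, Idh1 and Sesn3 were the only ones of these 10 genes still called, the others having an adjusted p from 0.0695 (Txnip) to 0.122 (Taldo1).

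**Figure D4:**
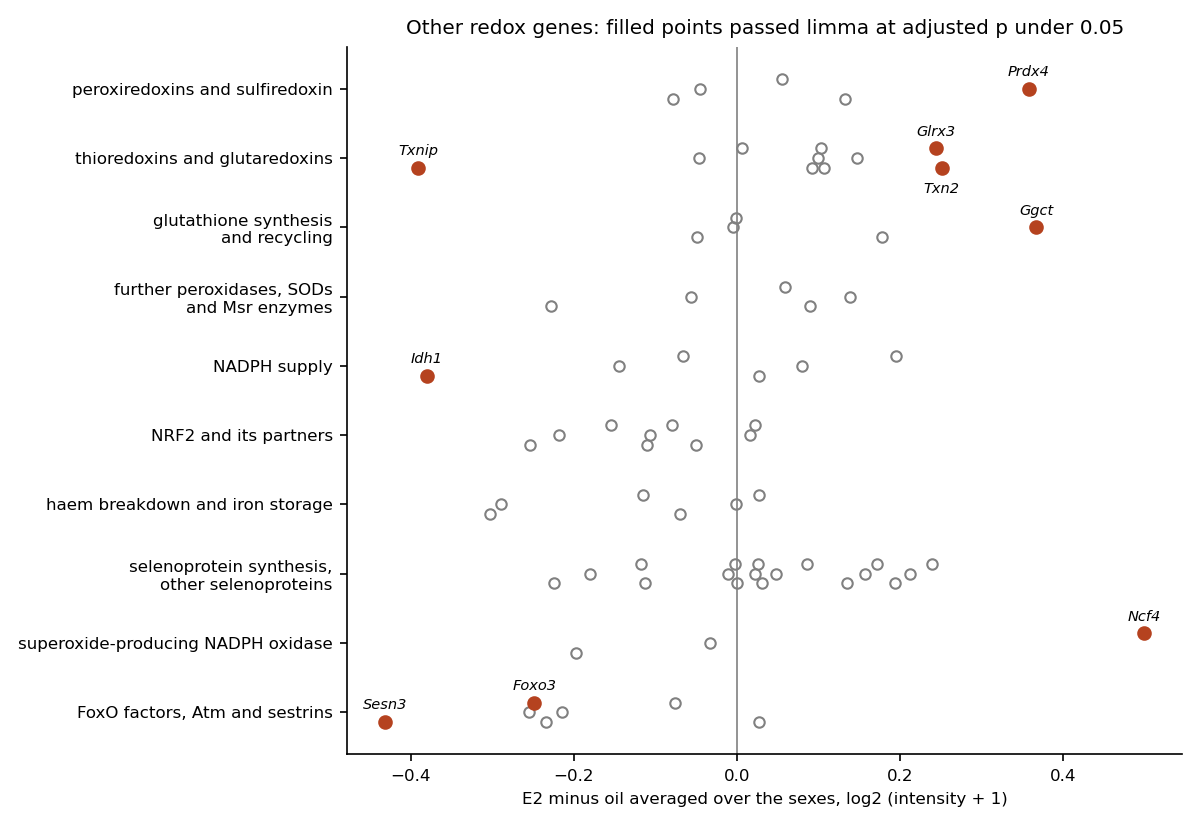
Averaged log2 difference of E2 minus oil for the 74 other redox genes above the filter, 1 row per list; each point is a gene, filled and named where limma's adjusted p was under 0.05. The 9 filled points are Prdx4, Glrx3, Txn2, Ggct and Ncf4 above 0 and Txnip, Idh1, Foxo3 and Sesn3 below it, and the row of NRF2 and its partners has none.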

How the data were processed

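The authors deposited 1 table of linear probe set intensity values for 12 arrays. Per the labels' protocols, RNA was amplified and labelled with NuGEN kits; how signals were summarised and normalized, and with which software, is not given in the sources used here. Gene symbols came from the platform annotation: 21780 of the probe sets carried a single symbol, and the 1605 with several and 12089 without one were left out. For a gene with more than 1 probe set, the one highest on average was taken. Genes with a mean log2 value (intensity plus 1) above the median of genes, 7.52 or an intensity of 182, were tested (9967 of 19935). One limma 3.58.1 model (R 4.3.3) with 4 group means was fitted to all 12 arrays, with eBayes (residual degrees of freedom 8, prior 5.38) and 2-sided Benjamini-Hochberg adjusted p-values over all genes tested, called under 0.05. Intervals are at 95%. Precision is limited by the number of arrays and by the spread between them; no background level comes with the values.

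The members and gene lists were chosen with earlier results of these data known. Named genes were the 10 members, the list genes called in an E2 comparison (at most 6 a list), called markers, and the 3 genes most correlated with each called member; Nfe2l2, Keap1, Gpx3 and Gpx7 were added after their values were seen. Other marker lists (erythroid, granulocyte, monocyte and macrophage, megakaryocyte, T and NK cell, B cell, mast cell, stroma and endothelium) were summed per array. Alternatives comprised a log offset of 16, filters at the 25th percentile or none, scaling by quantiles or by array medians, the mean of probe sets, trended and robust eBayes, array weights, only the groups compared, a log2 change of at least 1, an adjusted p under 0.1, a replicate block, and each array left out in turn. On simulated data with 200 changed genes among 9967, the averaged comparison recovered 36% of genes changed by 0.3, 92% at 0.5 and 100% at 1 (log2). That simulation made 169 calls in this comparison, against 887 in the data. It gave each gene the same spread in all groups and the same change in both sexes. These shares therefore do not give the recovery on the present arrays. Figures were drawn with matplotlib 3.10.9 in Python 3.11.15.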

Additional observations from a re-analysis of the deposited data

How the results depend on the processing

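The number of members called moved between 0 and 1 only, and the moves came from Gpx1 and Cat. In the averaged comparison the count was 0 with quantile normalization, median centring, no filter, the filter at the 25th percentile, a log2 change of at least 1 or the replicate block, where Gpx1 had an adjusted p of 0.051, 0.0641, 0.0846, 0.0518, 0.0314 and 0.0577, and 0 to 1 with 1 array left out. It stayed at 1 under the other 5, of which an adjusted p under 0.1 could only keep the call. A log2 change of at least 1 could only end it. In males the count was 1 (Gpx1) with trended and robust eBayes or array weights, and 0 to 1 with 1 array left out (1 without female E2 replicate 1). In females it was 1 (Cat) with median centring, trended and robust eBayes or an adjusted p under 0.1, and 0 to 1 with 1 array left out. The other 3 comparisons gave 0 members throughout. No paired design is stated; same-numbered arrays of different groups had deviations correlated from -0.263 to 0.203, and 0 of 12 arrays correlated best with its own number.

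Signs turned for uncalled differences near 0. Gpx4 was -0.0269 in males and -0.00415 on average with quantile normalization and -0.0396 in females with median centring, Sod1 was 0.0026 in males with median centring, and Gclc was -0.00727 on average with array weights. With 1 array left out, averaged differences ran from -0.0528 to 0.0859 for Gclc, -0.0238 to 0.139 for Gclm, -0.0159 to 0.0459 for Gpx4, -0.0745 to 0.155 for Hmox1, -0.000956 to 0.0385 for Sod1 and -0.0228 to 0.0831 for Txnrd1. In females they ran from -0.226 to 0.0518 for Gclc, -0.249 to 0.0761 for Gclm and -0.161 to 0.0512 for Txnrd1, and in males from -0.0475 to 0.0761 for Gpx4 and -0.0614 to 0.0167 for Sod1. Genes called overall ranged from 28 (a log2 change of at least 1) to 409 (array weights) in males, 29 to 657 in females and 30 to 1459 on average, the highest in the last pair at an adjusted p under 0.1. With no filter they were 80 in males, 183 in females and 568 on average, against 143, 355 and 887. With only the groups compared in the model, 390 were called in males and 68 in females. Median centring changed the averaged split from 311 higher and 576 lower to 202 and 516. In females it changed the split from 81 and 274 to 45 and 358. The causes were not tested.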

Other observations

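Gpx3, the secreted plasma glutathione peroxidase, lay below the filter on average but spread widely, and it was singled out after its values were seen. It read 95.8, 76.5 and 68.3 in oil-treated males and 525, 120 and 260 in E2-treated males, and 87.2, 115 and 51.3 in oil-treated females and 58.1, 384 and 753 in E2-treated females. The male groups did not overlap, as for 13.6% of genes tested in that direction. In females 2 of 3 E2 arrays were above all oil arrays, while E2 replicate 1 lay among them. Fitted without the filter, the averaged log2 difference was 1.67 ± 0.52 (SE; adjusted p = 0.118, limma), with an unadjusted p of 0.00668, so it did not pass. Gpx7, a peroxidase of the endoplasmic reticulum that was likewise dim and singled out after its values were seen, differed the other way, at -0.46 ± 0.13 (adjusted p = 0.0873, limma), and did not pass either. It read 181, 214 and 243 in oil-treated females and 175, 125 and 120 in E2-treated females. These did not overlap, as for 13.1% of genes tested in that direction, while the male groups did. Gpx1 was also lowest among the female E2 arrays on replicate 1.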
